A study of Saccharomyces cerevisiae with 24 samples.

Results

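The change in chromatin between 30 and 60 min after cadmium was added to budding yeast is described here for every open reading frame (ORF) of the deposited chromatin tables, 4427 of 4427. The 60 min column was compared with the 30 min column for the number of small fragments at each promoter and for the disorder of nucleosomes over each gene body. No ORF was chosen by its values. Cultures of the haploid laboratory strain W303 (MATa, with a mutant leu2 allele and with trp1-1 and can1-100, ura3-1 and ade2-1, and also his3-11,15) grew in rich medium at 30 C to an OD600 of 0.8. They received 1 mM CdCl2, and an untreated sample at 0 min served as the control of the time course. The series holds 24 samples, 12 of chromatin digested with micrococcal nuclease (MNase) and 12 of RNA, at 6 times from 0 to 120 min. The groups at 30 and 60 min held 4 of the MNase samples, 2 at each time, called technical replicates in the series text. All groups share the strain and the medium, and all groups after 0 min share the cadmium.

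MNase cuts DNA that no protein covers. Fragments shorter than a nucleosome, taken from a promoter, mark transcription factors, general factors and other small complexes on that DNA. Nucleosomes over a quiet gene usually sit in a regular array, and passage of RNA polymerase disturbs it, so a score of disorder (entropy) tends to be higher over strongly transcribed genes. Cadmium binds thiols, depletes glutathione and damages proteins. Yeast answers with heat shock and general stress genes, draws sulfur into glutathione, and lowers the synthesis of ribosomes.

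Each deposited table had 1 column per time, and no column named a replicate. Every difference below is therefore between 2 columns, with no replicate check and no p-value. Promoter fragments summed to 815195 at 30 min and 938227 at 60 min, with a median of 173 and 202 per promoter. Each column was divided by its median before log2, because the plain counts at 60 min were higher by 0.22 on the log2 scale at the median promoter. An error given with a promoter change is the standard error of counting alone. It takes each value as a plain count of fragments, and how replicates were combined is not given. On that basis counting accounted for 52.2% of the variance of the promoter change over all ORFs, whose standard deviation was 0.24. The depth behind the entropy score is unknown. In a bulk culture a small change in every cell and a large change in some cells cannot be told apart.

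Between 30 and 60 min, small fragments rose at the promoters of stress genes such as HSP26, HSP31 and GRE1 and fell at some ribosomal protein genes. At a threshold of 1.5-fold, 95 promoters rose, 2.15% of all, and 31 fell, 0.7% of all. With plain counts in place of counts over the column median, 321 promoters would pass as higher and 9 as lower, so this split depends on the scaling. With 10 fragments added to every count 46 would be higher and 19 lower, and with 63 added 3 and 3. At 2-fold, 8 promoters (0.181%) were higher and 3 (0.0678%) lower. Gene bodies became more disordered at some chaperone genes and more ordered at some ribosomal protein genes. The entropy rose by at least 0.2 at 73 gene bodies, 1.65% of all, and fell by as much at 22, 0.497% of all. The whole distribution moved a little upwards, from a median of 6.60 to 6.64, with 3042 ORFs (68.7%) higher at 60 min. Centred on that shift 35 gene bodies were higher and 32 lower, and after quantile normalization 31 and 34, so the excess of rises rests on the shift of all ORFs.

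**Figure D1:**
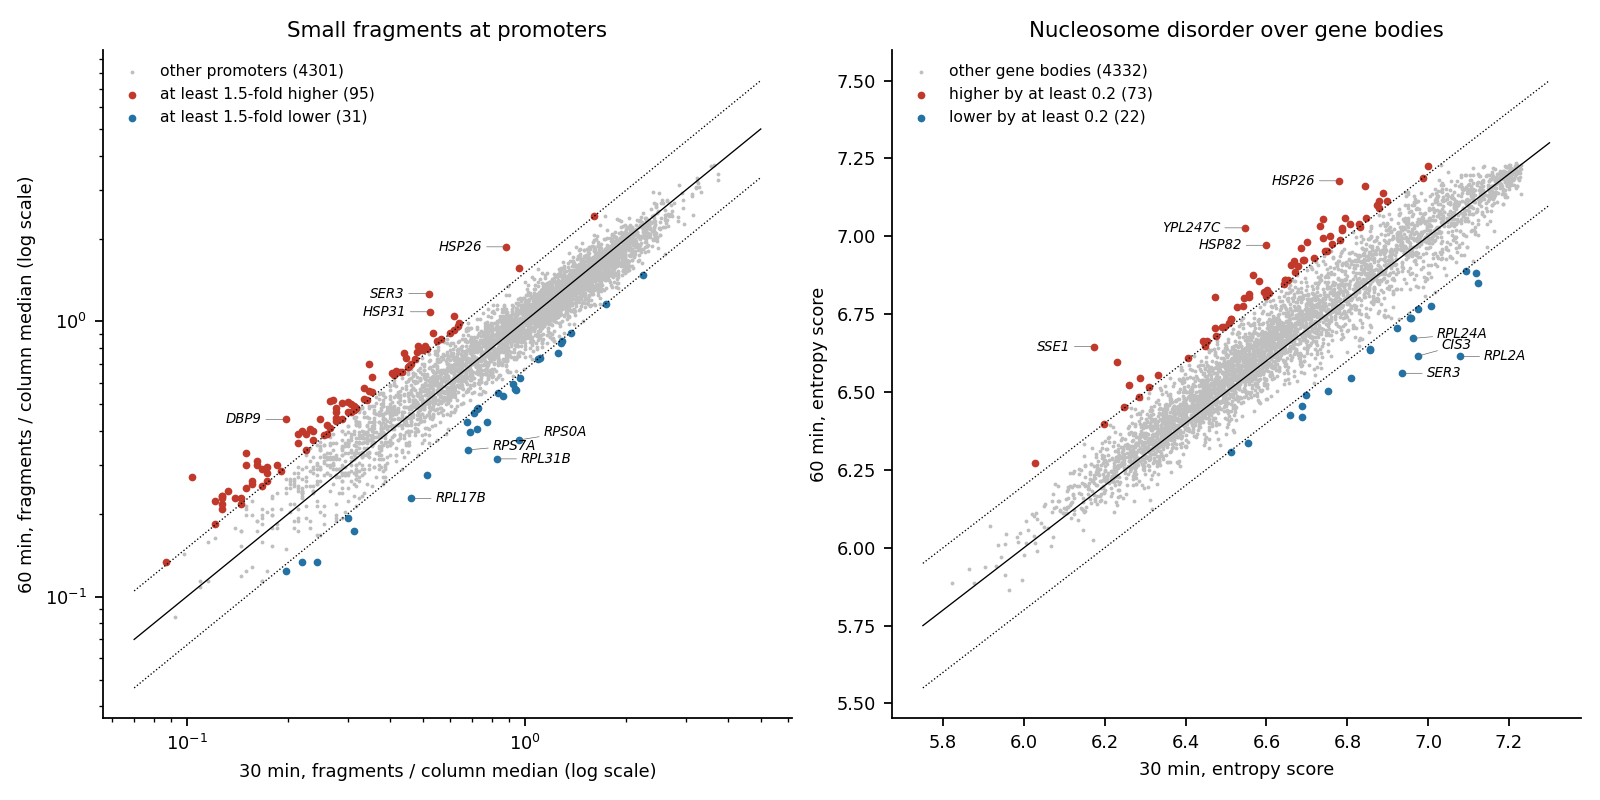
Each point is 1 of 4427 ORFs, with its 30 min value on the horizontal axis and its 60 min value on the vertical axis. The left panel shows promoter fragments over the column median on log scales and the right panel the entropy score. Dotted lines mark the thresholds of 1.5-fold and 0.2, and the 4 largest changes in each direction are named (for promoters, among those with at least 100 fragments over both columns). The 95 promoters that rose lie mostly at low levels, and HSP26 stands above the line in both panels.

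The highest rise among promoters with at least 100 fragments over both columns was at SER3, which codes for phosphoglycerate dehydrogenase, the first enzyme of serine synthesis (chromosome V, 322686 to 324095, R64). Over the 6 times (0, 7.5, 15, 30, 60 and 120 min) its promoter held 51, 53, 54, 90, 255 and 262 fragments. The 3 first values were alike, and the main gain fell between 30 and 60 min. The 60 min value was 2.43 times the 30 min value after scaling, a log2 change of 1.28 ± 0.18. SER3 is known for a noncoding transcript, SRG1, that crosses its promoter in rich medium and holds the gene down. SRG1 was not analysed here. SER3 RNA was 43.2 and then 86.1 TPM, a unit corrected for gene length and sequencing depth.

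HSP26, a small heat shock protein that binds unfolded proteins, rose next among the stress genes (chromosome II, 382030 to 382674). Its promoter held 60, 39, 113, 153, 377 and 535 fragments over the same times. The change from 30 to 60 min was 1.08 ± 0.14 in log2, and the promoter passed from below the column median to 1.87 times the median. HSP31, a chaperone and methylglyoxalase of the DJ-1 family, held 48, 52, 49, 91, 219 and 278 fragments over the 6 times, a change of 1.04 ± 0.18 from 30 to 60 min. In plain fragments HSP26 was lowest at 7.5 min and HSP31 at 0 min, and both were highest at 120 min. Over the column median, HSP31 was lowest at 15 min. RNA of HSP26 passed from 718 to 3857 TPM and that of HSP31 from 108 to 412 TPM in the same interval.

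GRE1, a hydrophilin induced by osmotic and other stress, had 60 promoter fragments, then 141 (1.01 ± 0.22), and 276 at the end. Its RNA passed from 188 to 2937 TPM. YPL247C, a WD-repeat protein of unknown function, had 47 fragments and then 105 (0.94 ± 0.25), and its RNA passed from 104 to 205 TPM. The other 5 of the 10 largest rises had at most 127 fragments at 60 min, and no RNA change near the threshold. DBP9, an RNA helicase of ribosome assembly, had 34 and 89 fragments (1.16 ± 0.29), and its RNA change was -0.11 in log2(TPM + 1). TAF11, a subunit of the general factor TFIID, had 46 and 104 (0.95 ± 0.26). GPI1, of GPI anchor synthesis, had 37 and 79, SHR3, which packages amino acid permeases in the endoplasmic reticulum, had 38 and 81, and YLR177W, a protein of unknown function, had 61 and 127. The RNA changes of these last 4 lay between -0.04 at TAF11 and 0.34 at YLR177W. The largest promoter gains thus included stress genes with more RNA and other genes with nearly the same RNA.

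The 10 largest falls at promoters began with 4 ribosomal protein genes. RPL31B, of the large subunit (chromosome XII, 931065 to 931755), had 272, 235, 140, 143, 64 and 83 fragments over the 6 times. Its change from 30 to 60 min was -1.38 ± 0.22. RPS0A, of the small subunit (chromosome VII, 920575 to 921788), had 338, 250, 163, 167, 75 and 115 fragments and a change of -1.38 ± 0.20. In plain fragments both promoters were lower by 15 min, level to 30 min and lower again by 60 min. RPL17B passed from 80 to 46 fragments (-1.02 ± 0.27) and RPS7A from 118 to 69 (-0.998 ± 0.22).

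The other 6 were not ribosomal. DIP5 and TAT1 carry amino acids into the cell. DIP5 passed from 89 to 56 fragments (-0.89 ± 0.25) and TAT1 from 134 to 87 (-0.85 ± 0.20), and their RNA changes were -1.72 and -1.50. RSB1, a putative transporter of sphingoid bases, had 125 and 82 fragments, and SRL1, a cell wall mannoprotein, had 119 and 80. PRR1, a protein kinase, had 163 and 114, and TEA1, an activator of Ty1 elements, had 162 and 115. RSB1 differed from the rest in that its promoter had been low at 0 min, with 61 fragments. RNA of PRR1 and TEA1 changed by -0.25 and 0.09, short of the threshold of 1.

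Chaperone genes gained the most nucleosome disorder of the 24 gene lists. Of the 25 cytosolic and mitochondrial chaperones in the tables (35 in the list), 7 rose by at least 0.2, 28.0% against 1.65% of all ORFs, and 0 fell. The median change of the 25 was 0.118 against 0.029 over all ORFs, and 20 of them were above 0. The 7 were SSE1, HSP26, HSP82, SIS1, CUR1, YDJ1 and HSC82. Centred on the median of all ORFs, YDJ1 and HSC82 did not pass and 5 of 25 remained. SSE1, an Hsp110 that exchanges nucleotide on Hsp70 (chromosome XVI, 350194 to 352275), scored 6.583, 7.121, 7.195, 6.174, 6.646 and 7.171 over the 6 times. HSP82, the inducible Hsp90 (chromosome XVI, 96496 to 98625), scored 6.250, 6.938, 7.215, 6.599, 6.971 and 7.228. Both were disordered by 15 min, more ordered at 30 min and disordered again afterwards.

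The other members that passed, HSP26 apart, were also lower at 30 min than at 15 min. SIS1, a J-domain co-chaperone of Hsp70 (chromosome XIV, 618507 to 619565) scored 6.844 at 30 min and 7.160 at 60 min, beside 7.159 at 15 min. YDJ1, another J-domain protein, scored 6.512 and 6.735, beside 7.106 at 15 min. CUR1, which sorts misfolded proteins to the nucleus, scored 6.733 and 7.033, beside 7.025 at 15 min. HSC82, the constitutive Hsp90, scored 6.763 and 6.974, beside 7.169 at 15 min. The J-domain members MDJ1 and APJ1 did not pass, at 0.163 and 0.040. In 6 of the 7, the 30 min score was below the 15 min score, and in 5 of the 7 the 120 min score was above the 60 min score. HSP26 was the exception at 30 min. From 7.5 min on it scored 6.627, 6.726, 6.780, 7.178 and 7.234, and its one rise of at least 0.2 from one time to the next came between 30 and 60 min.

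The RNA of these 7 genes did not move as a block. HSP26 RNA rose by 2.42 in log2(TPM + 1) and CUR1 RNA by 2.03, from 54.8 to 227 TPM. HSP82 (727 to 815 TPM) and SIS1 (543 to 658 TPM) changed by 0.16 and 0.28. HSC82 fell by 1.58, from 2764 to 921 TPM. SSE1 passed from 2240 to 1210 TPM, a change of -0.89, and YDJ1 from 523 to 413 TPM. The entropy of 3 of the 7 was thus higher while their RNA was lower at 60 than at 30 min. HSP82 and HSC82 are close copies of each other, and how reads shared by such copies were counted is not given in the sources used here.

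At the promoters of the 25 chaperones, 3 rose, 12.0% against 2.15% of all, and 0 fell. They were HSP26, HSP31 and HSP78. With 63 fragments added HSP26 and HSP31 remained. HSP78, the mitochondrial disaggregase, had 167 fragments at 30 min and 317 at 60 min (0.70 ± 0.14). The list's median change was 0.13, and the median level passed from 0.98 to 1.14 of the column median, after 1.45 at 15 min. Of the 7 chaperones whose entropy rose past the threshold, SSE1 had 65 and 98 promoter fragments (0.37 ± 0.23). HSP82 had 185 and 227 (0.07 ± 0.14), and CUR1 had 190 and 230 (0.05 ± 0.14). HSP31 had an entropy of 7.182 and 7.161 and a promoter that more than doubled its fragments.

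**Figure D2:**
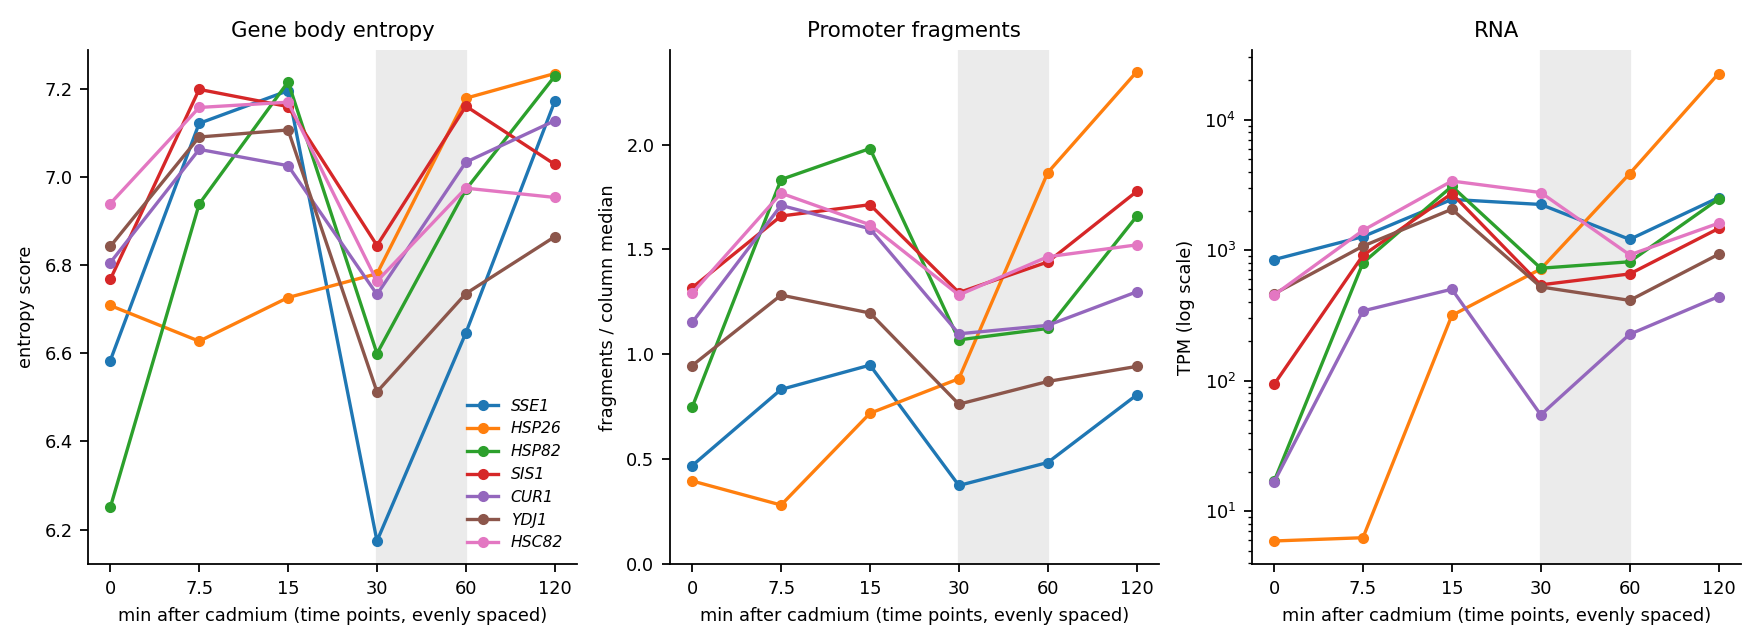
The 7 chaperone genes whose gene body entropy rose by at least 0.2 between 30 and 60 min (shaded) are followed over the 6 times, which are spaced evenly on the axis. The panels show the entropy score, promoter fragments over the column median, and RNA in TPM on a log scale, 1 value per time. Entropy of 6 of the 7 drops from 15 to 30 min and rises to 60 min, while HSP26 rises from 30 min in all 3 panels.

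Outside the chaperones, the largest rise in entropy was at YPL247C (chromosome XVI, 82625 to 84196), from 6.546 to 7.027. It had scored 6.453, 6.452 and 6.449 at the 3 earlier times and scored 7.110 at the last. MDH1, the mitochondrial malate dehydrogenase (chromosome XI, 279123 to 280127), passed from 6.231 to 6.595 and then 6.935. These gene bodies, unlike those of SSE1 and HSP82, had not been disordered at 15 min. ESC1, a protein of the nuclear periphery that takes part in silencing, rose by 0.333, EHD3, a mitochondrial hydrolase of valine breakdown, by 0.313, and GTT3, assigned to glutathione metabolism, by 0.307. RNA of MDH1, EHD3 and GTT3 changed by 0.24, 0.00 and 0.02, and that of ESC1 by 0.91.

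RPL2A, of the large ribosomal subunit, lost the most disorder of all gene bodies (chromosome VI, 220507 to 221418). It scored 7.124, 7.117, 7.142 and 7.078 from 0 to 30 min, then 6.614 and 6.592. Its promoter passed from 218 to 155 fragments (-0.72 ± 0.15) and its RNA from 386 to 80.0 TPM. RPL2A was the 1 gene of the tables that fell past both thresholds. On plain counts its promoter did not pass, and with centred entropy RPS7A passed both as well. Its body kept a high score until 30 min, although its RNA had been 1821 TPM at 0 min and was 386 TPM at 30 min. RPL2A shares its coding sequence almost entirely with RPL2B, so reads of the pair may be split between them.

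Other ribosomal bodies had begun to lose disorder sooner. RPL28 scored 7.235, 7.229, 7.058, 6.753, 6.502 and 6.507 over the 6 times. RPL24A scored 7.205, 7.200, 7.119, 6.962, 6.672 and 6.679, and its promoter had only 36 and 53 fragments at 30 and 60 min (0.33 ± 0.31). These bodies stood at or near the top of the scale before cadmium, where 7.235, the score of RPL28, was the highest of all ORFs. RPL28 and RPL24A held their 60 min level to 120 min.

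Other genes among the 10 largest falls in entropy were of mixed function. SER3 passed from 6.936 to 6.560, after 7.162 at 0 min. CIS3, a cell wall glycoprotein, passed from 6.974 to 6.615 and then to 6.356 at 120 min, with RNA of 453 and 224 TPM at 30 and 60 min. CHS2, the chitin synthase of the division septum, passed from 6.659 to 6.425. STE6, the exporter of a-factor, fell by 0.269, AIP5, an actin regulator, fell by 0.262, and TRR1, the cytosolic thioredoxin reductase, fell by 0.238. AIP5 was alone among these 10, apart from SER3, in having higher RNA at 60 min, 61.6 and then 85.7 TPM.

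Both measures passed their thresholds at 10 ORFs, and either did at 211. HSP26, NTH1, PCM1, LAS21, GCY1 and YPL247C rose in both. With entropy centred on the median of all ORFs, HSP26, PCM1 and YPL247C remained. NTH1, the neutral trehalase, had 78 and 138 promoter fragments (0.60 ± 0.20), entropy of 6.899 and 7.113, and RNA of 268 and 473 TPM. GCY1, an aldo-keto reductase of glycerol metabolism, had 77 and 149 fragments (0.73 ± 0.20), entropy of 6.986 and 7.187, and RNA of 75.5 and 362 TPM. PCM1, of chitin precursor synthesis, and LAS21, of GPI anchor synthesis, had promoter changes of 0.76 ± 0.17 and 0.78 ± 0.32 with RNA changes of 0.24 and 0.40. All 6 had higher RNA at 60 than at 30 min, and it passed the threshold of 1, as at 1.47% of all ORFs, at HSP26 and GCY1.

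At 3 ORFs the promoter gained fragments while the body lost disorder. They were SER3, FMP33, a mitochondrial protein, and STE6. FMP33 had 48 and 98 fragments (0.81 ± 0.25), entropy of 7.007 and 6.775, and RNA of 51.7 and 138 TPM. STE6 had 104 and 183 fragments (0.59 ± 0.18), entropy of 6.689 and 6.420, and RNA of 102 and 64.8 TPM. The opposite pair of changes, a promoter that fell and a body that rose, was seen at 0 ORFs.

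Of the 110 cytosolic ribosomal protein genes in the tables (137 in the list), 8 promoters fell, 7.27% against 0.7% of all, and 0 rose. The 8 were RPL31B, RPS0A, RPL17B, RPS7A, RPL2A, RPS24B, RPL36B and RPS3. The median change was -0.16 with scaling, and 93 of 110 were below 0, but on plain counts the median was 0.06 and 4 of 110 passed as lower, so the direction of the list holds only relative to the median promoter. These promoters had many fragments before cadmium, at a median of 1.93 times the column median. Of the 1107 promoters in the highest of 4 equal groups at 0 min, 91 were ribosomal with a median change of -0.17, and the other 1016 had a median of -0.08. In the fall from 30 to 60 min the ribosomal promoters of this group went from 1.75 to 1.58 times the column median, and the other promoters from 1.75 to 1.65. At 15 min these medians were 1.69 and 1.68, so both sets stood higher at 30 min than at 15 min.

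Their gene bodies split. Entropy fell at 6 of 110, 5.45% against 0.497% of all, and rose at 0. They included RPL2A, RPL24A, RPL28, RPL9A and RPL24B. The median was -0.027, with 61 below and 47 above 0. RNA of the list fell much more evenly, with 107 of 110 lower by at least 1, against 4.18% of all, and a median of -1.79. Most members, such as RPS0A (7.221 and 7.188) and RPL31B (7.017 and 6.989), therefore had RNA that fell while the entropy of the body stayed within 0.2. Most ribosomal protein genes have a near copy, so values of single members are uncertain.

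Of 126 ribosome biogenesis genes in the tables, 3 gene bodies rose, 2.38% against 1.65% of all, which is near the background. Their median was 0.056 against 0.029, and 106 (84.1%) were above 0 against 68.7% of all ORFs. NOB1, a nuclease of the small subunit, passed from 6.557 to 6.805. DBP2, an RNA helicase, passed from 6.027 to 6.272 after 7.032 at 0 min. DBP8, another helicase, went from 6.197 to 6.397, and with centred entropy it was not past the threshold. The promoters of DBP9, REX4 and NOP7 rose, 2.38% against 2.15% of all, and 0 fell. RNA of the list had a median change of -0.41. Among 15 regulators of ribosomal gene transcription, HMO1, a high mobility group protein at these promoters, rose from 6.878 to 7.114 in entropy while its RNA passed from 434 to 198 TPM. RAP1, their main activator, rose from 6.489 to 6.709, and with centred entropy it did not pass. These 2 gene bodies were 13.3% of the 15, against 1.65% of all. CRF1, a corepressor, had 189 and 312 promoter fragments, short of the threshold at 0.50 ± 0.13, with RNA of 5.82 and 41.5 TPM.

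In the general stress list of 21 measured members, the promoters of GRE1, CTT1 and GCY1 rose, 14.3% against 2.15% of all. With 63 fragments added to every count none of them passed. The list's median level at 0 min was 0.75 of the column median. Of all 95 rises, 82 lay among the 1107 promoters with the fewest fragments at 0 min, so 2.15% is not the share at low promoters. In the gene body MSC1 and GCY1 rose, 9.52% against 1.65%, and neither passed with centred entropy. CTT1, the cytosolic catalase, had 58 and 116 fragments (0.78 ± 0.23) with entropy of 7.177 and 7.208. Of 14 trehalose and glycogen genes, the promoters of PIG2, a regulator of glycogen synthesis, and NTH1 rose, 14.3% against 2.15%. With 10 fragments added only PIG2 passed, and with 63 added neither did. In the bodies of the trehalose synthase complex, TPS1, its catalytic subunit, rose from 6.691 to 6.924 and TPS3, a regulatory subunit, fell from 6.512 to 6.308. With NTH1, 14.3% of the list's bodies rose against 1.65% of all, and 7.14% fell against 0.497%. With centred entropy TPS1 and TPS3 still passed and NTH1 did not, and after quantile normalization only TPS3 passed. In the general stress list the median RNA change was 0.60.

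Sulfur assimilation supplies glutathione. Of its 33 genes in the tables, 1 promoter and 1 gene body rose, 3.03% each against 2.15% and 1.65% of all, so the shares were near the background. The promoter was that of JLP1, a dioxygenase that releases sulfite from sulfonates. It held 34 fragments at 15 min, then 45, 85 and 272, a change of 0.69 ± 0.27 from 30 to 60 min, and its RNA passed from 14.5 to 380 TPM. With 10 fragments added the JLP1 promoter did not pass. In gene bodies, AGP3, an amino acid permease, rose from 6.999 to 7.226, with RNA of 147 and 1047 TPM. With centred entropy AGP3 did not pass, and after quantile normalization it did. The list's medians were -0.05 for promoters and -0.005 for entropy. None of the 6 regulators of the sulfur regulon passed either threshold. Of 26 genes of the Aft1 iron regulon, the promoter of ARN2, a siderophore transporter, rose from 76 to 155 fragments (0.80 ± 0.20), 3.85% against 2.15% of all. The list's median was -0.12, with 18 of 26 below 0.

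In the endoplasmic reticulum folding list, 17 of 19 gene bodies were above 0 in entropy, where 68.7% of all ORFs were, and 15 of 19 were above the median of all ORFs. DER1, which takes part in the degradation of misfolded proteins, rose from 6.452 to 6.663, 5.26% of the list against 1.65% of all. With centred entropy DER1 did not pass. No promoter of the 19 passed the threshold. Of 30 proteasome genes, RPN4 and PRE9 rose in entropy, 6.67% of the list against 1.65% of all. RPN4, the activator of the others, rose from 6.887 to 7.140 as its RNA passed from 88.0 to 223 TPM. PRE9, a core subunit, rose from 6.448 to 6.649, and with centred entropy it did not pass. The list as a whole went the other way, with an entropy median of -0.013 and 20 of 30 below 0. At its promoters 22 of 30 were below 0. Of 28 genes of glycolysis and fermentation, the promoters of PFK1, TDH1, HXK1 and PDC6 rose, 14.3% against 2.15% of all. With 10 fragments added TDH1 and HXK1 remained, and with 63 added none did. The list's median was -0.06, with 16 of 28 below 0. The promoter of ADH1, the main alcohol dehydrogenase, fell from 125 to 97 fragments (-0.59 ± 0.20), and with 10 fragments added it did not pass. PDC6, a decarboxylase isozyme poor in sulfur amino acids, had 278 and 487 fragments and RNA of 582 and 5574 TPM. PFK1, a subunit of phosphofructokinase, had 27 and 53 fragments and RNA of 707 and 601 TPM.

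**Figure D3:**
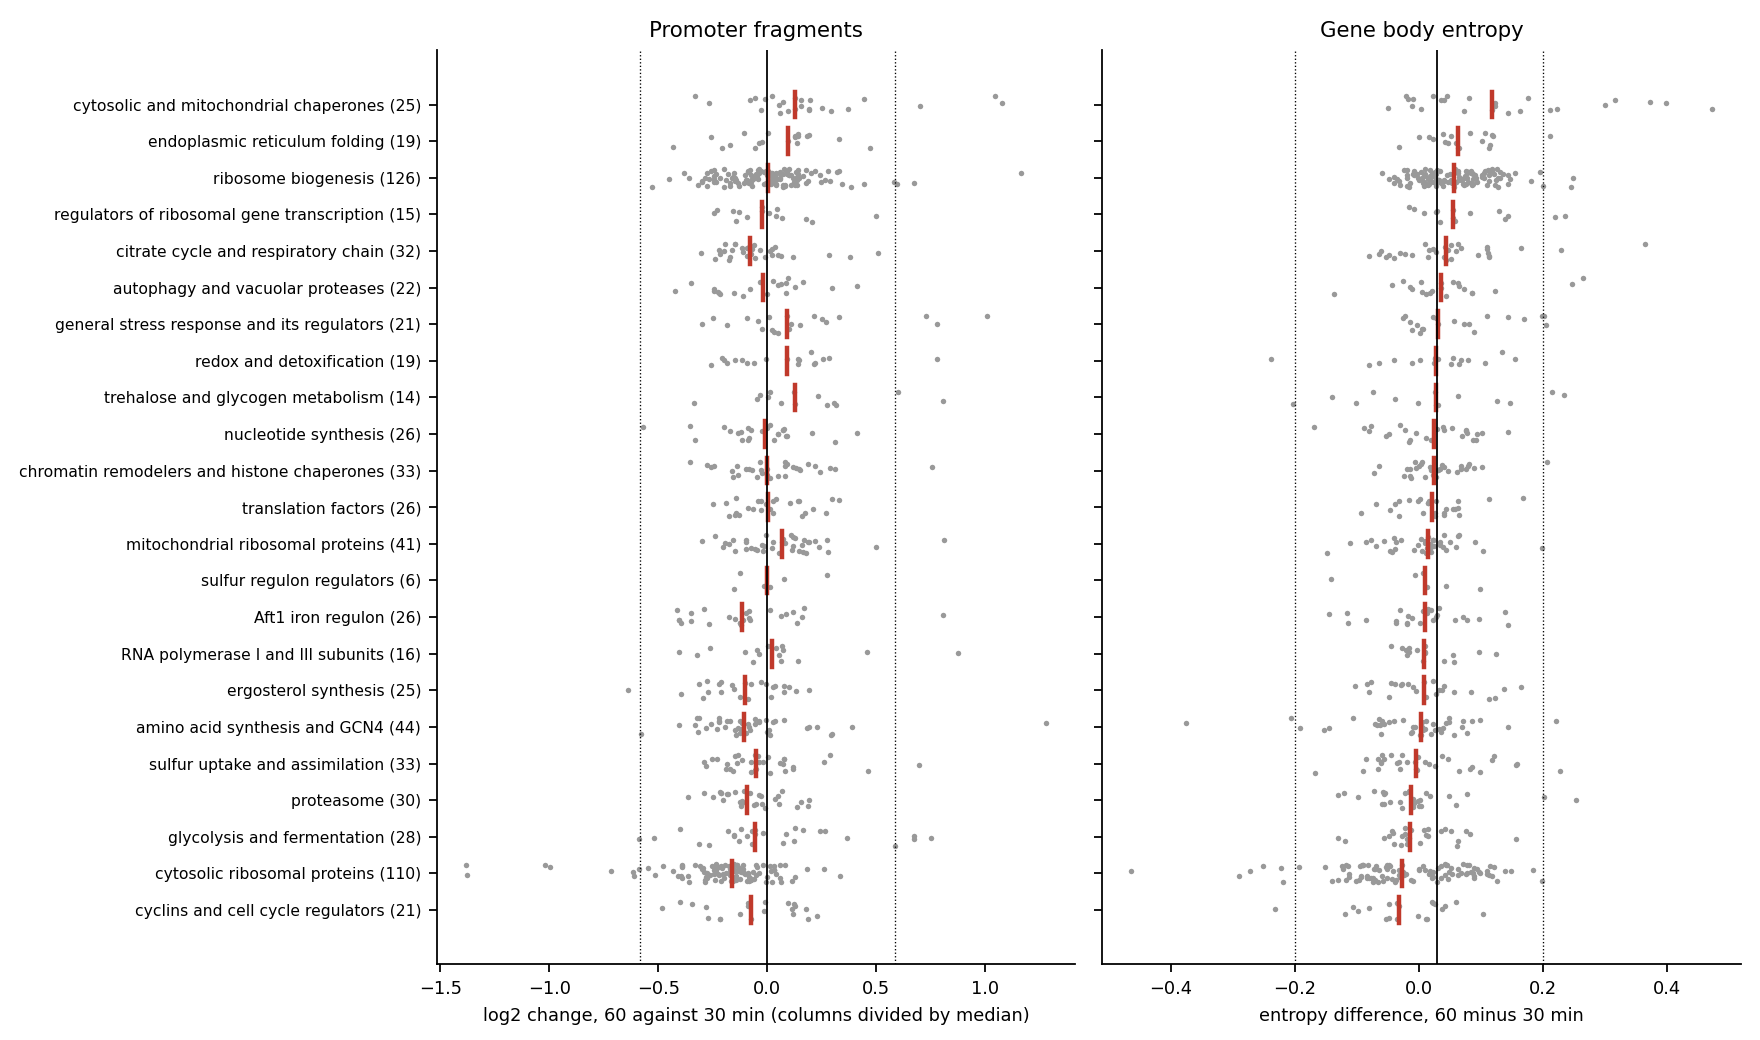
Each grey point is 1 member of a gene list of at least 5 measured members, with the number in brackets, and each red bar is the list's median. The horizontal axes show the promoter log2 change and the entropy difference, 60 against 30 min; the solid line marks the median of all ORFs and dotted lines the thresholds. Chaperones have the highest entropy median, 0.118, and the lowest promoter median is that of ribosomal protein genes, -0.16.

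Compared with RNA over the same interval, the changes in chromatin were weakly related across ORFs. Across 4423 ORFs whose mean over all times was 1 TPM or more, the promoter change had a Spearman correlation of 0.22 with the RNA change and the entropy change 0.16. The 2 chromatin changes correlated at 0.07 with each other. These ORFs share libraries, so the values are descriptions. RNA was higher at 60 min at 73 of the 95 ORFs whose promoter rose, 76.8% against 55.3% of all ORFs. RNA was lower at 22 of the 31 whose promoter fell, 71.0% against 44.7% of all ORFs, with a median of -0.70. Of the 73 ORFs whose entropy rose, RNA rose by at least 1 at 8 and fell by as much at 4. Of the 22 whose entropy fell, RNA rose at 1 and fell at 8. Over all ORFs, RNA rose by at least 1 at 1.47% and fell at 4.18%. Cytosolic ribosomal protein genes made up 8 of the 31 promoters and 6 of the 22 gene bodies that fell. RNA of that list fell by at least 1 at 107 of 110.

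How far a promoter moved depended on its level before cadmium. In the lowest of 4 equal groups by fragments at 0 min, a column outside the comparison, 82 promoters rose and 8 fell. In the next group 13 rose and 5 fell, and in the upper 2 groups 0 rose and 9 fell in each. Median counts passed from 69 to 90 in the lowest group and from 303 to 334 in the highest. The median gain in plain fragments was 18, 28, 29 and 31 from the lowest to the highest group. Low counts also carry the largest counting error, and 27 of the 95 promoters that rose had fewer than 100 fragments over both columns. The part of counting error in this order was not tested. HSP31, SER3, GCY1 and CTT1 belong to the lowest group, with 48, 51, 37 and 45 fragments at 0 min. For entropy, rises also became fewer with the score at 0 min, with 26, 25, 17 and 5 of the 73 from the lowest to the highest group. The falls differed from those of promoters, since 19 of the 22 were in the highest group.

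**Figure D4:**
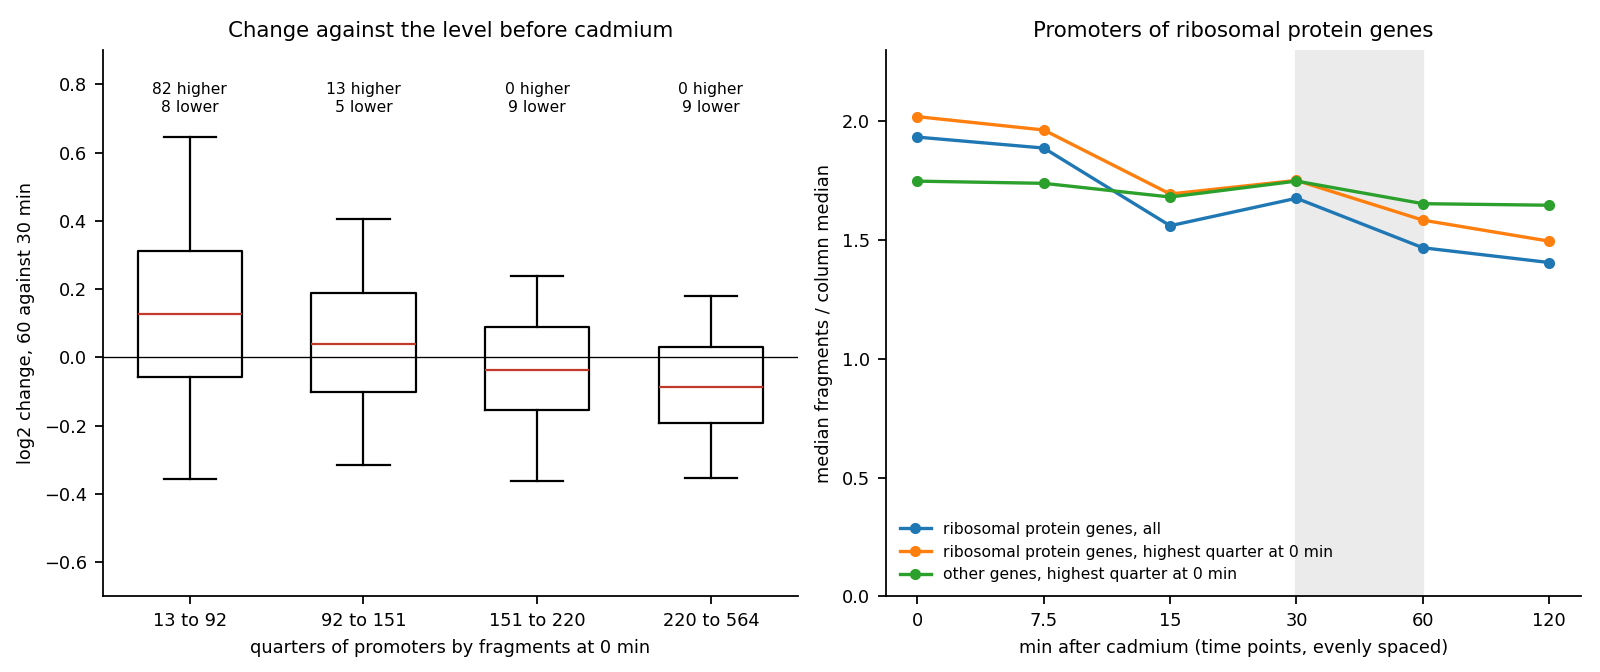
The left panel groups the promoters by fragments at 0 min into 4 equal sets and shows the log2 change from 30 to 60 min (box, middle 50%; line, median; whiskers, 5th to 95th percentile), with counts past 1.5-fold above. The right panel follows the median promoter level of ribosomal protein genes and of the other genes of the highest set. Of the rises, 82 of 95 lie in the lowest set, and ribosomal promoters drop from 1.68 to 1.47 times the column median between 30 and 60 min (shaded). Ribosomal promoters stood at 1.56 at 15 min.

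Promoter changes of neighbouring genes that diverge from a short shared region were related. In 459 such pairs with starts less than 500 bases apart, the promoter changes correlated at 0.82 across pairs (Spearman), against 0.10 in 463 pairs farther apart. At 30 min 39 of the 459 pairs had the same count. Their entropy changes correlated at only 0.08. Of the 126 promoters past the threshold, 28 lay in such a pair. In 21 pairs at least 1 gene passed, and in 7 of these both passed in 1 direction. GPI1, for example, lies 233 bases from CCH1, a calcium channel gene whose promoter changed by 0.61. TAF11 lies 195 bases from TRM9, a tRNA methyltransferase gene, at 0.50. SHR3, in contrast, lies 459 bases from NOP6, whose promoter changed by -0.19. Where windows overlap, a count cannot be given to 1 of the 2 genes, and the windows are not given in the sources used here.

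The interval from 15 to 30 min and that from 60 to 120 min each share a column with this one. From 15 to 30 min 61 promoters (1.38%) were higher and 77 (1.74%) lower, and 100 gene bodies (2.26%) were higher and 44 (0.994%) lower. From 60 to 120 min 13 promoters (0.294%) were higher and 89 (2.01%) lower, and 47 gene bodies (1.06%) were higher and 22 (0.497%) lower. The intervals differ in length (15, 30 and 60 min).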

How the data were processed

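The 3 deposited tables hold 1 column per time point. Per the labels, chromatin was digested with MNase, and the submitters' processing notes name Bowtie 0.12.7 and the builds sacCer3 and R64. The promoter table holds counts of small fragments deposited by the authors. Entropy was deposited by the authors as a score per gene body, and RNA as TPM. The fragment lengths, windows, entropy formula, treatment of shared reads and combination of replicates are not given in the sources used here. Symbols and coordinates come from the RefSeq gene table of R64, which matched all 4427 ORFs.

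Promoter changes are log2 differences of count over column median, entropy changes are plain differences, and RNA changes are differences of log2(TPM + 1). The RNA comparison kept 4423 ORFs (mean TPM of 1 or more). Python with pandas and numpy was used, and the calculations were tested on simulated data. Genes were named as the 10 largest changes per direction and measure (promoters with at least 100 fragments over both columns), up to 4 per combination of both measures, and up to 3 members per list and measure, or all members of lists under 12. The lists and members were chosen with earlier results of these data known. Neighbours of GPI1, TAF11 and SHR3, and list members beyond the 3 named, were chosen after their values were seen. Some genes that the rule names are not reported here.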

Additional observations from a re-analysis of the deposited data

How the results depend on the processing

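The promoter counts depend on the scaling and on any pseudocount. With plain counts 321 promoters were higher and 9 lower, against 95 and 31. With 10 fragments added, 46 were higher and 19 lower, and with 63 fragments added (the 10th percentile of counts), 3 were higher and 3 lower. For gene bodies, centring on the median change left 35 higher, and quantile normalization gave 31 higher and 34 lower, against 73 and 22. With 63 fragments added, list medians relative to all ORFs moved to -0.01 for sulfur assimilation, -0.054 for the proteasome, -0.075 for the Aft1 regulon, -0.046 for the citrate cycle and respiration and -0.11 for cytosolic ribosomal proteins. With quantile normalization, entropy medians moved to -0.012 for sulfur assimilation, 0.026 for general stress and -0.014 for glycolysis. Pearson in place of Spearman gave 0.28 and 0.11 for promoters with RNA (30 to 60 and 60 to 120 min), 0.21 and 0.17 for entropy with RNA, and -0.23 for entropy with its 0 min value. The cause was not tested beyond what each setting does by construction. None of the 126 promoters and 95 gene bodies past a threshold changed sign under these alternatives, but this was nearly fixed in advance. The thresholds of 0.585 in log2 and 0.2 in entropy exceed the shifts of 0.22 and 0.029 made by the scaling and the centring. A pseudocount mainly shrinks changes. The median of the ribosomal protein promoters did change sign on plain counts, as given above. No paired analysis was possible because no column names a replicate, and for the same reason no replicate could be left out. At low depth counting error is wide: it was 0.32 in log2 at LAS21, with 30 and 60 fragments. No error can be given for entropy.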

Other observations

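Seen from the RNA, 65 ORFs (1.47%) were higher by at least 1 in log2(TPM + 1) at 60 than at 30 min and 185 (4.18%) lower. The promoters of the 65 had a median change of 0.21, with 15 higher and 1 lower, and 8 of their gene bodies rose and 1 fell. The promoters of the 185 had a median of -0.17, with 1 higher and 11 lower, and 4 of their gene bodies rose and 8 fell. Over all ORFs, 2.15% of promoters rose and 0.7% fell, and 1.65% of gene bodies rose and 0.497% fell. Of the 185, 107 were cytosolic ribosomal protein genes. That list had a promoter median of -0.16, and 8 of its promoters and 6 of its gene bodies fell. Most ORFs past the RNA threshold thus had neither chromatin value past its own.

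Further genes changed singly. ATG17 and ATG13, which start autophagosome formation, passed from 6.795 to 7.059 and from 6.756 to 7.002 in entropy. They were 9.09% of 22 autophagy and vacuolar protease genes, against 1.65% of all ORFs. The list's entropy median was 0.0355, near the 0.029 of all ORFs, and none of its promoters passed the threshold. In branched-chain amino acid synthesis, ILV2 passed from 6.513 to 6.734 and ILV5 from 7.094 to 6.888, while their RNA passed from 323 to 161 and from 421 to 106 TPM. With centred entropy ILV5 stayed past the threshold and ILV2 did not. SPT6, a histone chaperone that travels with RNA polymerase II, had 93 and 183 promoter fragments, and RSC3, of the RSC remodeler, rose from 6.783 to 6.989 in entropy. With centred entropy RSC3 was not past the threshold. ERG1, squalene epoxidase, had 168 and 126 promoter fragments (-0.64 ± 0.17). LPD1, the lipoamide dehydrogenase, rose from 6.593 to 6.822 beside MDH1, and after quantile normalization only MDH1 of the 2 passed. Of 211 ORFs past either chromatin threshold, 148 were in none of the 24 lists.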
